A study of Mus musculus with 6 samples.

Results

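The genes described here are the Hmga, Lin28 and Igf2bp genes of mouse endothelial cells that carry a human Integrin-β1-GFP chimera: Hmga1, Hmga2, the pseudogene Hmga2-ps1, Lin28a, Lin28b, Igf2bp1, Igf2bp2 and Igf2bp3. They were chosen by symbol, with their values in these cultures already known, and are 8 of the 23420 symbols in the count table. The cells were eEnd2, a mouse embryonic endothelial line, stably transfected with human Integrin-β1A that bears an extracellular GFP tag, either in its wildtype form (β1-WT-GFP) or with K794Q, a glutamine in place of a lysine of the cytoplasmic tail that mimics acetylation (β1-K794Q-GFP). In both groups a fragment of the human β-actin promoter with a chicken lysozyme matrix attachment region drove the chimera, the mouse gene for Integrin-β1 was left in place, and no further treatment was given. Total RNA of 3 cultures of each group (A, B and C, the order in which 3 values of a group are always given below) was sequenced after depletion of ribosomal RNA, from confluent cells that had been sorted for GFP. GFPlow and GFPhigh populations were sorted, and the sources used here do not name the population behind each culture. Nothing says that the cultures of a group came from separate transfections, so the mutation and the transfected population that carries it cannot be told apart, and each p-value below measures only the spread between these cultures.

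Lin28a and Lin28b are RNA binding proteins of embryonic cells that bind the precursors of let-7 microRNAs and block their maturation. Mature let-7 pairs through its seed with the 3′ untranslated regions (UTRs) of many growth genes, and Hmga2, a small chromatin protein that bends AT-rich DNA, is among its best known targets. The Igf2bp proteins bind, stabilise and transport mRNAs such as those of Igf2, Myc and β-actin, and share with Hmga2 and Lin28 a high level in the embryo, a low one in most adult tissues and a return in many tumours. Hmga1 is the sister protein of Hmga2, and Hmga2-ps1 is a transcribed pseudogene that resembles the Hmga2 coding sequence.

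The let-7 sequences are shown because their seed links the members to each other. In RefSeq (GRCm38.p6), 10 mature let-7 and miR-98 names shared the seed GAGGUAG, written in capitals at bases 2 to 8, and let-7j alone had GAGGUAU. The gene of let-7i lies on the same chromosome as Hmga2, with the mature bases at chr10:122985698-122985719 on the minus strand.
let-7a-5p: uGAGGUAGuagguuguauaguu
let-7i-5p: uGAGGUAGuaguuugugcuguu
let-7j: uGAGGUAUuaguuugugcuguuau

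The 7 letters CTACCTC, which pair with the shared seed, were searched on the transcript strand in the annotated 3′ UTR of each coding member (GENCODE M21, GRCm38, the coding transcript with the longest 3′ UTR). Hmga2, Lin28b and Igf2bp1 held 4 matches each, Lin28a held 2, and Hmga1, Igf2bp2 and Igf2bp3 held 1 each. Of 21028 genes with an annotated 3′ UTR, 9.02% held at least 1 match and 0.0571% held 4 or more. These shares do not take length into account. Among genes with a 3′ UTR at least as long, 8 of 2779 held as many matches or more for Hmga2, 6 of 1094 for Lin28b and 3 of 376 for Igf2bp1. The same numbers were 148 of 3238 for Lin28a, 1468 of 9105 for Hmga1, 1175 of 6197 for Igf2bp2 and 1023 of 4984 for Igf2bp3. The matches of Hmga2, Igf2bp2 and Igf2bp1, which reached at least 1 CPM in a culture, are printed below, each with the match in capitals and the base that follows it. In Hmga2 the base after the match is A once, in Igf2bp1 it is A in 3 of the 4, and in Igf2bp2 the match is followed by A. A match describes the annotated sequence and does not show that let-7 acts on it.
Hmga2 site 1, chr10:120364224-120364245, minus strand: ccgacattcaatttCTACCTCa
Hmga2 site 2, chr10:120362987-120363008, minus strand: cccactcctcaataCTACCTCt
Hmga2 site 3, chr10:120362549-120362570, minus strand: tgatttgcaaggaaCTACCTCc
Hmga2 site 4, chr10:120361691-120361712, minus strand: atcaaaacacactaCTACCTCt
Igf2bp2 site, chr16:22059473-22059494, minus strand: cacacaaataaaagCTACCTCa
Igf2bp1 site 1, chr11:95961778-95961799, minus strand: ctgtgcgaagtaaaCTACCTCa
Igf2bp1 site 2, chr11:95959357-95959378, minus strand: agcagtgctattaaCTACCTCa
Igf2bp1 site 3, chr11:95958763-95958784, minus strand: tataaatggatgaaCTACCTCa
Igf2bp1 site 4, chr11:95958140-95958161, minus strand: cttttggttttaatCTACCTCt

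Hmga2-ps1 is placed by RefSeq at chr1:176834624-176836133 (1510 bases), inside an intron of Sdccag8, a gene for a centrosomal protein, with 0 annotated Sdccag8 exons over it. GENCODE M21 annotates a shorter entry there, Gm38158, at chr1:176835724-176836062. Aligned to the 327 coding bases of Hmga2, stop codon included, that entry was 98.5% identical, with 5 substitutions and 2 insertions of 11 bases and 1 base in the pseudogene. The substitutions were G33T, A51G, C65A, C177T and G303C, with the Hmga2 base first and positions counted from 1 at the A of its start codon. Their surroundings are printed because a read that lies within the aligned stretch can be assigned only if it crosses a substitution or an insertion. The capital marks the substituted base. Of the 290 stretches of 50 bases in Gm38158, 52 (17.9%) also occurred in Hmga2 transcripts, so that reads inside them could not be assigned by sequence. How the authors' counting treated such reads is not given in the sources used here. The part of the 1510-base RefSeq interval outside Gm38158 was not compared with Hmga2, so the share for the whole interval is not known.
Hmga2-ps1 with G33T, chr1:176835746-176835766: ccgggcagccTtccacatcag
Hmga2-ps1 with A51G, chr1:176835764-176835784: cagcccagggGcaacctgccg
Hmga2-ps1 with C65A, chr1:176835778-176835798: cctgccgcccAggtgccacag
Hmga2-ps1 with C177T, chr1:176835901-176835921: aaaacaagagTccctctaaag
Hmga2-ps1 with G303C, chr1:176836028-176836048: agacatcctcCcaagagtccg

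The cultures held between 9589826 and 15287191 counts. Levels are given as normalised CPM, counts scaled to library size with TMM factors. All 10 endothelial markers were present at 31.3 CPM or more in every culture, and the haematopoietic, epithelial and pluripotent or germ cell markers stayed under 1 CPM. Cultures of 1 group were not equally close. In β1-WT-GFP cells 65 of the 11608 tested genes differed at least 2-fold between cultures A and B, while 2701 set A apart from C and 2539 set B apart from C. In β1-K794Q-GFP cells the number ran from 903 to 2562. Because β1-WT-GFP culture C stood apart, values of the members are given below with and without it, as are those of named list genes whose sign or call turned without it.

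Hmga2, the chromatin protein of the family, was present in all 6 cultures at very uneven levels. It lies on the minus strand at chr10:120361275-120476469 (ENSMUSG00000056758.14, protein coding). Its counts were 444, 484 and 5550 in β1-WT-GFP cells, as against 3181, 1061 and 886 in β1-K794Q-GFP cells. In normalised CPM these were 38.8, 48.4 and 387 against 306, 105 and 76.2. The highest of the 6 cultures was β1-WT-GFP C and the next was β1-K794Q-GFP A, the lowest were β1-WT-GFP A and B, and the groups overlapped. The means were 158 ± 198 CPM in β1-WT-GFP cells, as against 162 ± 125 in β1-K794Q-GFP cells (SD, n = 3 each), and in the fit of all genes the log2 fold change was 0.04, its standard error (SE) being 1.00. The SD of the β1-WT-GFP cells was above their mean, and the highest of the 6 cultures had 9.95 times the level of the lowest.

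The direction for Hmga2 depended on which culture was counted. Within β1-WT-GFP cells culture C had 8.86 times the mean of A and B. Without culture C the β1-WT-GFP mean was 43.6 CPM, all 3 β1-K794Q-GFP cultures lay above it, and the log2 fold change was 1.91 (SE 0.68), past a fold of 2 and an unadjusted p of 0.05. In that fit 5.99% of all tested genes passed both thresholds upwards. Without β1-K794Q-GFP culture A the log2 fold change was -0.82, without β1-WT-GFP culture A it was -0.42 and without β1-WT-GFP culture B it was -0.39, and none of these passed. In bulk RNA a change in the share of cells that express a gene and a change in RNA per cell cannot be told apart.

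**Figure D1:**
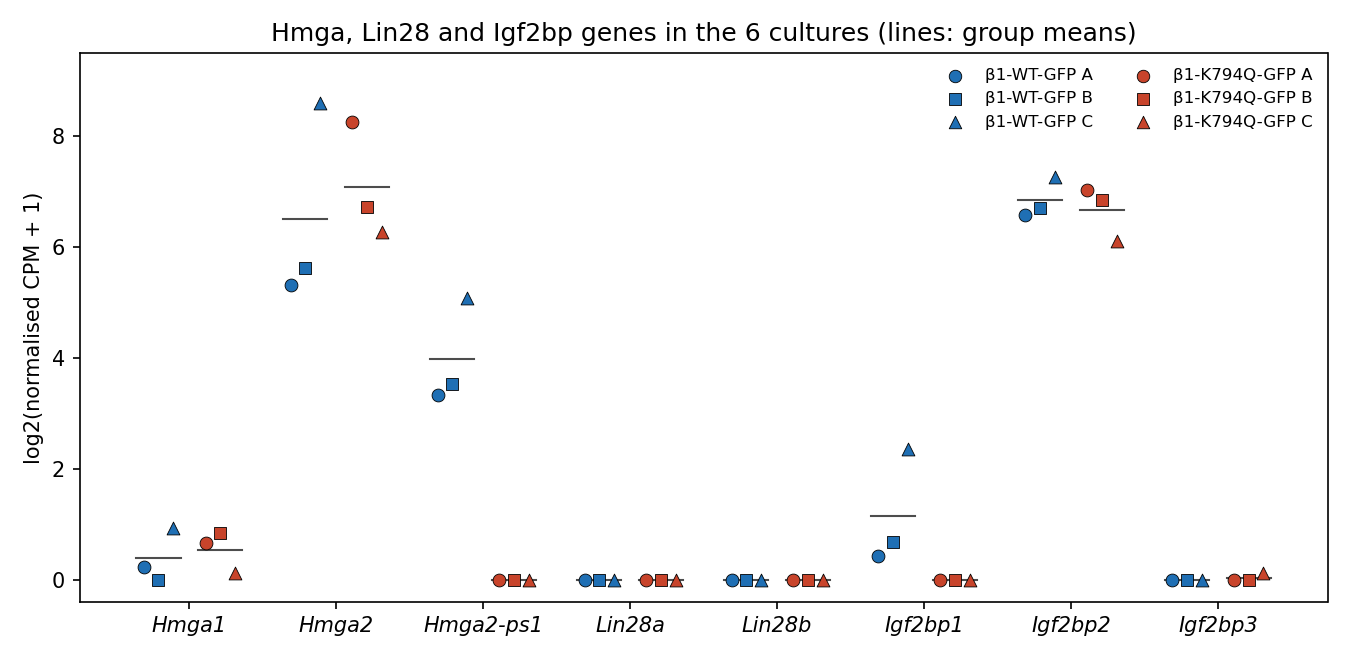
The log2 of normalised CPM plus 1 (y axis) for the 8 genes (x axis), with 1 point per culture, blue for β1-WT-GFP, red for β1-K794Q-GFP, marker shape for culture A, B or C, and a line at each group's mean of the plotted values. Hmga2 overlaps between the groups with β1-WT-GFP culture C on top at 387 CPM, Hmga2-ps1 and Igf2bp1 are at 0 in all 3 β1-K794Q-GFP cultures, and Lin28a and Lin28b are at 0 in all 6.

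The genes beside Hmga2 were higher in β1-K794Q-GFP cells. Of 9 tested genes around it, which start between 119199255 and 121410350 on chromosome 10, 6 passed both thresholds upwards and 0 downwards, where 3.48% of all tested genes passed upwards. These neighbours were taken because the region was already known to be raised in these data, so the count is a description. In 6 of the 9, and in 8.45% of all tested genes, all β1-K794Q-GFP cultures were higher than all β1-WT-GFP cultures, and the median log2 fold change was 1.14.

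Single neighbours differed in how far the cultures moved together. Llph, which starts closest to Hmga2, had 6.47, 8.10 and 7.73 CPM in β1-WT-GFP cells, as against 15.02, 7.01 and 16.7 in β1-K794Q-GFP cells, so that culture B was not raised. Tmbim4, a membrane protein of the Golgi and a regulator of cell death, had 28.4 ± 1.70 CPM in β1-WT-GFP, as against 68.6 ± 5.54 in β1-K794Q-GFP cells (SD, n = 3 each), for a log2 fold change of 1.27 (SE 0.15). Lemd3, an inner nuclear membrane protein, had 30.8 ± 3.33 and 68.0 ± 17.8 CPM (SD, n = 3 each), giving a log2 fold change of 1.14. Helb, a DNA helicase, stood at 98.1, 19.4 and 107 CPM in β1-K794Q-GFP cells against 17.5 ± 0.831 in β1-WT-GFP cells (SD, n = 3), so that culture B hardly differed from the wildtype cultures. Rassf3, Cand1 and Irak3 were the other 3 past both thresholds, with log2 fold changes of 1.96, 1.11 and 3.01, and Irak3 overlapped between the groups. Msrb3, Llph and Tbc1d30 did not pass, with 0.96, 0.80 and -0.01. Without single cultures the calls of Cand1, Lemd3 and Irak3 were lost in 2, 1 and 4 of 6 fits, those of Msrb3 and Llph were gained in 2 and 1, and those of Tmbim4, Helb and Rassf3 held.

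The 6 cultures did not rank alike in Hmga2 and in the level of its surroundings. The running median over 25 tested genes in order of start, Hmga2 among them, was taken on the log2 scale against the β1-WT-GFP mean. At Hmga2 it was -0.13, 0.06 and 0.05 in β1-WT-GFP cells, as against 1.26, 0.28 and 1.19 in β1-K794Q-GFP cells. Hmga2 itself had -2.01, -1.70 and 1.29 in the former and 0.95, -0.59 and -1.05 in the latter, on the same scale. β1-WT-GFP culture C thus combined an unmoved region with the highest Hmga2 level. β1-K794Q-GFP culture C combined a raised region with Hmga2 below the mean of the 3 β1-WT-GFP cultures, though its 76.2 CPM lay above the 43.6 of A and B alone. With the regional level taken into the fit, the log2 fold change of Hmga2 was -0.90 (SE 0.96), and with β1-WT-GFP culture C left out as well it was 0.86 (SE 0.57). Neither passed both thresholds. When that culture was dropped but the regional level was not used, the log2 fold change was larger, at 1.91 (SE 0.68). Among the remaining cultures, every β1-K794Q-GFP culture exceeded every β1-WT-GFP culture both in Hmga2 and in the running median. Whether the region sets the level of Hmga2 was not tested.

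**Figure D2:**
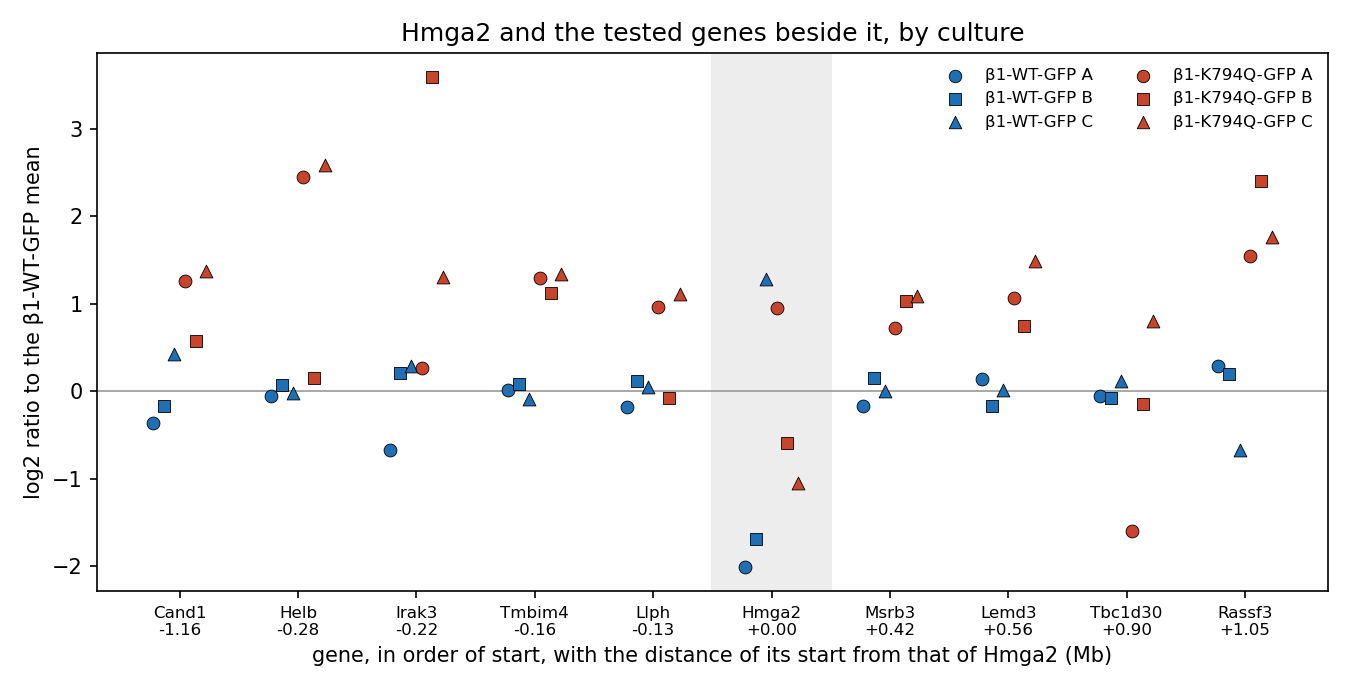
The log2 ratio of each culture's CPM (plus 0.5) to the β1-WT-GFP mean (y axis) for Hmga2, shaded, and 9 tested genes around it in order of start (x axis, distance in Mb), with blue points for β1-WT-GFP, red for β1-K794Q-GFP and shapes for cultures A, B and C. Red points lie above blue ones in 6 of the 9 neighbours, while at Hmga2 the blue triangle of β1-WT-GFP culture C is highest at 1.29.

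Hmga2-ps1 was present in each β1-WT-GFP culture and at 0 in each β1-K794Q-GFP culture. It had 103, 106 and 470 counts in β1-WT-GFP cells, which is 9.01, 10.6 and 32.7 CPM, and 0 counts in the 3 others. Against the highest floor of a β1-K794Q-GFP culture, 3 counts or 0.296 CPM, the β1-WT-GFP mean of 17.4 ± 13.3 CPM (SD, n = 3) made the pseudogene lower by at least 58.9-fold, and by at least 33.1-fold when β1-WT-GFP culture C was dropped. The groups did not overlap, which held for 16.6% of all tested genes, with β1-K794Q-GFP lower in 8.12%. Of the 8 members, 3 passed the filter on low counts (Hmga2, Hmga2-ps1 and Igf2bp2), and Hmga2-ps1 was the 1 past both thresholds, where 5.19% of all tested genes passed, 1.71% in the downward direction. The members were chosen with this contrast known, so nothing is read from that count.

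Hmga2-ps1 took uneven shares of the reads counted on it and Hmga2 together. It took 18.8% of the reads of the pair in β1-WT-GFP culture A (95% Clopper-Pearson interval 15.6 to 22.4), 18.0% in culture B (15.0 to 21.3) and 7.81% in culture C (7.14 to 8.51), intervals that cover counting error only. In β1-K794Q-GFP culture A, 3181 reads of Hmga2 came with 0 of Hmga2-ps1, which allows a share of up to 0.0943%. The same limit was 0.283% in culture B and 0.339% in culture C. β1-K794Q-GFP culture A had 6.57 times the Hmga2 counts of β1-WT-GFP culture B, with 0 counts on the pseudogene. Whether reads of Hmga2 add to the pseudogene counts of the β1-WT-GFP cultures was not tested.

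**Figure D3:**
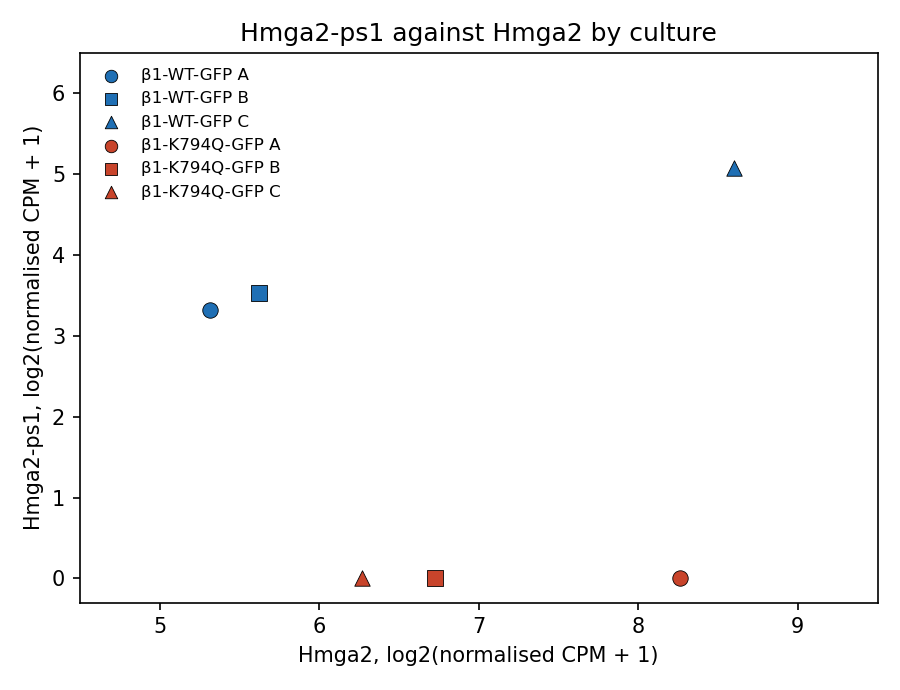
Hmga2-ps1 (y axis) against Hmga2 (x axis), both as log2 of normalised CPM plus 1, with 1 point per culture in blue (β1-WT-GFP) or red (β1-K794Q-GFP) and shapes for cultures A, B and C. The blue points rise from 9.01 to 32.7 CPM of the pseudogene, and the red points lie on the 0 line over the range of 76.2 to 306 CPM of Hmga2.

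Genes around the pseudogene on chromosome 1 differed far less. Sdccag8, whose intron holds it, had 40.8, 35.9 and 21.6 CPM in β1-WT-GFP cells, as against 36.2, 35.2 and 33.9 in β1-K794Q-GFP cells, a log2 fold change of 0.10 (SE 0.26) with overlapping groups. Over the 5 tested genes on each side the median log2 fold change was -0.47, 4 of 10 lay below the β1-WT-GFP cultures in every β1-K794Q-GFP culture, where 8.12% of all tested genes did, and 1 passed both thresholds downwards (1.71% of all). That gene was Cox20, a cytochrome c oxidase assembly factor, at -1.004 (SE 0.29), a call that held in 2 of the 6 fits without a culture and ended with the regional level in the fit. The other 3 were Zbtb18 (-0.64), Adss (-0.82) and Desi2 (-0.82). This neighbourhood was looked up after its values were seen. Among other cell type markers, the summed level of the 8 mesenchymal ones also differed between the groups, at 184, 195 and 84.3 CPM in β1-WT-GFP cells and 2.58 to 3.75 in β1-K794Q-GFP cells, but within β1-WT-GFP cells it was lowest in culture C, where the pseudogene was highest. Prrx1, a transcription factor of limb and head mesenchyme, carried most of it with 183, 194 and 56.5 CPM in β1-WT-GFP cells. The other 7 summed to 0.79, 1.20 and 27.7 CPM in β1-WT-GFP cells and to 3.56, 3.65 and 2.58 with β1-K794Q-GFP. In all, 6 of the 8 reached 1 CPM in any culture and Twist2 and Lum were at 0. The part of these markers in the result was not tested.

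**Figure D4:**
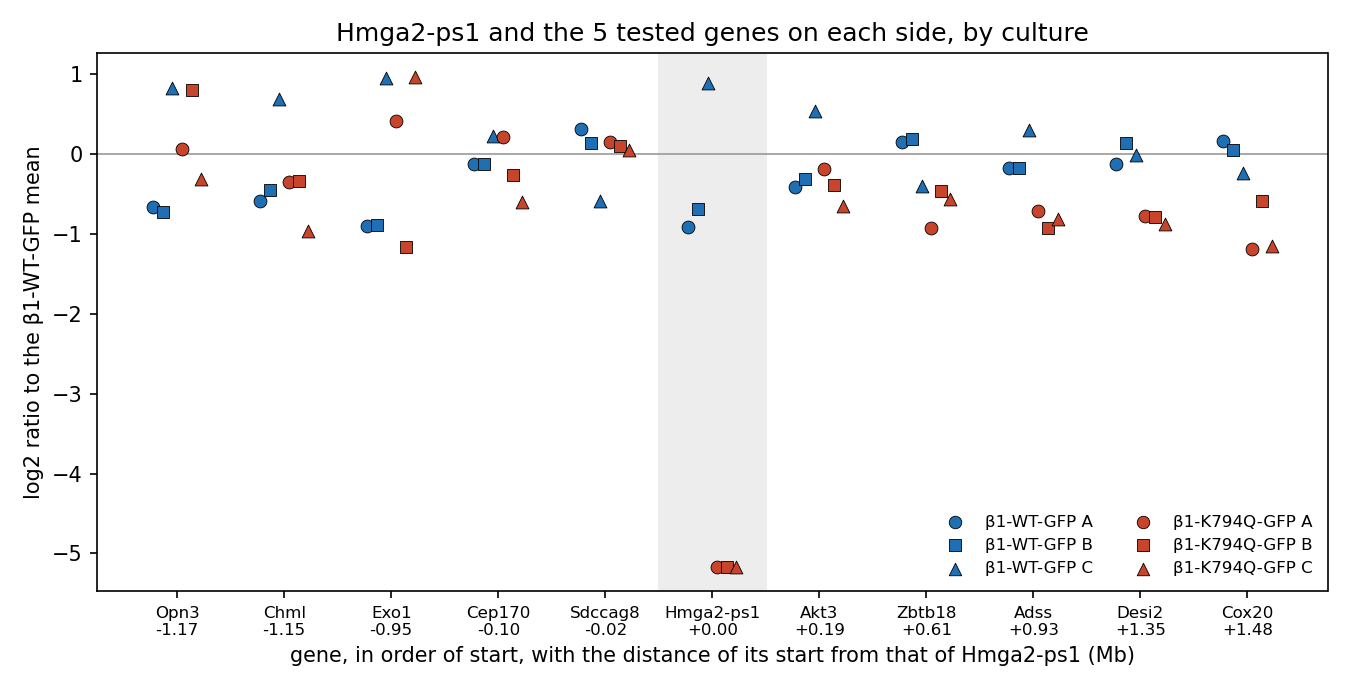
The log2 ratio of each culture's CPM (plus 0.5) to the β1-WT-GFP mean (y axis) for Hmga2-ps1, shaded, and the 5 tested genes on each side in order of start (x axis, distance in Mb), with blue points for β1-WT-GFP, red for β1-K794Q-GFP and shapes for cultures A, B and C. The 3 red points of Hmga2-ps1 coincide at -5.17, the value that 0 counts take with the added 0.5, and Zbtb18, Adss, Desi2 and Cox20 have all red points below the blue ones.

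Among the mRNA binding proteins, Igf2bp2 was well expressed and did not separate the groups. It lies at chr16:22059009-22163299 on the minus strand (ENSMUSG00000033581.17). Its levels were 94.3, 103 and 153 CPM in β1-WT-GFP cells, as against 130, 114 and 67.8 in β1-K794Q-GFP cells. The highest culture was again β1-WT-GFP C, the lowest was β1-K794Q-GFP C, and the others fell between them. The means were 117 ± 31.5 and 104 ± 32.2 CPM (SD, n = 3 each), giving a log2 fold change of -0.17 (SE 0.31). Leaving out single cultures moved it between -0.37 and 0.08, turning the sign without β1-WT-GFP culture C (0.08) and without β1-K794Q-GFP culture C (0.06).

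Igf2bp1 was close to the limit of detection. It lies at chr11:95957163-96005940 on the minus strand. Its counts were 4, 6 and 59 in β1-WT-GFP cells and 0 in each β1-K794Q-GFP culture, that is 0.35, 0.60 and 4.11 CPM against 0. The groups did not overlap, but culture C held 59 of the 69 counts. Measured against the same floor of 0.296 CPM, Igf2bp1 was at least 5.70-fold lower with β1-K794Q-GFP when all cultures were used, and at least 1.60-fold lower when β1-WT-GFP culture C was dropped. It was under the filter on low counts. Igf2bp3, at chr6:49085223-49214957, had 1 count, in β1-K794Q-GFP culture C, so no fold is given, and 18.1% of its stretches of 50 bases also occurred in transcripts of Malsu1.

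Lin28a and Lin28b, the let-7 antagonists, had 0 counts in all 6 cultures. Lin28a lies at chr4:134003330-134018841 and Lin28b at chr10:45376620-45486395, both on the minus strand. Over the 68268942 counts of the 6 cultures together, 0 counts allow a level of up to 0.0439 CPM for each gene, and in a single culture the limit lay between 0.209 and 0.2999 normalised CPM. A level below that was not detectable at this depth. For Lin28b 0% of the stretches of 50 bases were shared with another gene and for Lin28a 4.72%. The region of Lin28b, on the same chromosome as Hmga2 but far from it, was not raised in the same way. Of the 5 tested genes on each side, from Qrsl1 to Gopc, 1 of 10 passed both thresholds (5.19% of all tested genes), with a median log2 fold change of 0.19. That gene was Lilrb4, an inhibitory receptor of immune cells, at 2.77 (SE 1.01), with 0.688 to 7.80 CPM in β1-K794Q-GFP cultures and a call that held in 2 of 6 fits without a culture. Rtn4ip1, Atg5, Prdm1, Prep, Hace1, Ascc3 and Dcbld1 had log2 fold changes between -0.58 and 0.41 and Qrsl1 and Gopc had -0.09 and 0.45. In Hace1 and Gopc, 2 of the 10, all β1-K794Q-GFP cultures were higher than all β1-WT-GFP cultures, as in 8.45% of all tested genes. The starts of the 10 genes span 8.46 Mb, as against 2.21 Mb for the genes around Hmga2.

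Hmga1 had few counts. At chr17:27556497-27563674 on the plus strand it had 2, 0 and 13 counts in β1-WT-GFP cells, as against 6, 8 and 1 in β1-K794Q-GFP cells, 15 in each group. None of these reached 1 CPM and the groups overlapped. Culture C held 13 of the 15 counts of β1-WT-GFP cells. Without it the β1-WT-GFP mean was 0.087 CPM, as against 0.48 in β1-K794Q-GFP cells, and the groups still overlapped. Reads that fit several positions may not have been counted, and the level of Hmga1 is therefore uncertain.

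Between genes, levels can be compared per length. With the union of annotated exons as length, Hmga2 stood at 23.3 ± 29.2 CPM per kb in β1-WT-GFP, as against 23.98 ± 18.5 in β1-K794Q-GFP cells, and Igf2bp2 at 15.8 ± 4.25 and 14.03 ± 4.35 (SD, n = 3 each). The order of these neighbours was within their spread in both groups. In β1-WT-GFP cells Hmga2-ps1 followed at 11.6 ± 8.78 CPM per kb of its RefSeq length, also within the spread of Igf2bp2. Igf2bp1 and Hmga1 lay far below, at 0.17 ± 0.22 and 0.17 ± 0.23 CPM per kb, and Igf2bp3, Lin28a and Lin28b were at 0. The place of Hmga1 in this order is uncertain in both groups, since reads that fit several positions may not have been counted. In β1-K794Q-GFP cells Hmga1 had 0.23 ± 0.17 CPM per kb, Igf2bp3 rested on its 1 count, and Hmga2-ps1, Igf2bp1, Lin28a and Lin28b were at 0. Without β1-WT-GFP culture C the β1-WT-GFP mean was 43.6 CPM for Hmga2, over 6772 bases, and 98.8 CPM for Igf2bp2, over 7402 bases. Hmga2 was then lower per kb than Igf2bp2, so that their order in β1-WT-GFP cells rested on that culture.

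No tested gene of the machinery that makes and removes let-7 passed both thresholds. Of 18 tested genes of let-7 processing, among them the nucleases Drosha and Dicer1, the exporter Xpo5 and the uridylyl transferases Tut4 and Tut7 that act with Lin28, 0 passed both thresholds, and the median log2 fold change was -0.03 against -0.02 over all tested genes. Trim25, a cofactor of let-7 uridylation, was the most abundant with 471, 526 and 209 CPM in β1-WT-GFP cells, as against 638, 274 and 290 in β1-K794Q-GFP cells, a log2 fold change of -0.00 (adjusted p = 0.998 by edgeR's quasi-likelihood or QL F-test, adjusted after Benjamini and Hochberg over all tested genes). Ago2 followed with a log2 fold change of -0.17 (adjusted p = 0.916, same test), and 0.11 without β1-WT-GFP culture C. The likelihood ratio test and DESeq2 gave 0 calls here too, and by the quasi-likelihood test the number with an unadjusted p up to 0.05 was 0. With no filter on low counts 1 gene of the list passed, and without β1-K794Q-GFP culture B 1 did.

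The let-7 genes themselves could be followed only through their hairpins and host transcripts. The 12 hairpin rows held at most 2.36 CPM in any culture and 4 of them passed the filter. Mature let-7 was not measured. Of 7 tested genes in this list 0 passed both thresholds, with a median log2 fold change of 0.07 and log2 fold changes between -0.30 and 0.64. Huwe1, a ubiquitin ligase whose locus holds let-7f-2 and miR-98, had 919 ± 112 CPM in β1-WT-GFP, as against 962 ± 48.5 in β1-K794Q-GFP cells (SD, n = 3 each), and Wdr82, at the let-7g locus, had 110 ± 13.0 and 106 ± 6.51, a log2 fold change of -0.05 that was 0.06 without β1-WT-GFP culture C.

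Among known targets of let-7, 1 of 27 tested passed both thresholds upwards and 1 downwards, where 3.48% and 1.71% of all tested genes did, and the median log2 fold change was 0.10. In this list 19 of 30 genes (63.3%) held a CTACCTC match in the 3′ UTR. Igf1r, the receptor for insulin-like growth factors, held 2 matches and fell from 50.5, 50.4 and 48.1 CPM in β1-WT-GFP cells to 13.2, 9.97 and 16.9 in β1-K794Q-GFP cells. Its log2 fold change was -1.89 (SE 0.24, adjusted p = 0.0613 by edgeR's QL F-test), its call held in each of the 6 fits without a culture, and the groups did not overlap. Ccnd2, a D type cyclin without a match, rose by 3.41 on the log2 scale (SE 0.64, adjusted p = 0.12). Ccnd1 and Thbs1, the most abundant of the list, had 1204 and 3261 CPM in β1-WT-GFP culture C, and their log2 fold changes of 0.85 and -5.47 became 2.49 and 3.00 without it. Neither passed in either fit. Without β1-WT-GFP culture C, and likewise without β1-K794Q-GFP culture A or C, 4 genes of the list passed.

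Among mRNAs bound by Igf2bp proteins, 3 of 17 tested rose past both thresholds and 1 fell (3.48% and 1.71% of all tested genes), with a median log2 fold change of 0.15. Ccng1, cyclin G1 and a p53 target, had 35.2, 36.6 and 44.4 CPM in β1-WT-GFP cells, as against 144, 190 and 190 in β1-K794Q-GFP cells, with a log2 fold change of 2.17 (SE 0.20, adjusted p = 0.0336 by edgeR's QL F-test). Abcb1a, a drug efflux pump of endothelium, had 10.3, 10.8 and 15.5 CPM in the former and 0.48, 0.20 and 0.086 in the latter, a log2 fold change of -5.54 (SE 0.60, adjusted p = 0.0474, same test). These were the 2 list genes with an adjusted p of at most 0.05, where 0.181% of all tested genes had one. Mapt, the microtubule binding protein tau, rose by 1.98 (adjusted p = 0.171) and Ccnd3, another D type cyclin, by 1.08 on the log2 scale (adjusted p = 0.145), the latter losing its call without β1-WT-GFP culture C or β1-K794Q-GFP culture B. Actb, which encodes β-actin and is the most abundant, had a log2 fold change of -0.24 (SE 0.59), and 0.53 without β1-WT-GFP culture C.

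Genes linked to Hmga2 also went both ways, with 1 of 14 tested up and 2 down past both thresholds, against 3.48% and 1.71% of all tested genes, and a median log2 fold change of -0.01. Tet1, a 5-methylcytosine dioxygenase, had 7.79, 6.90 and 6.82 CPM in β1-WT-GFP cells, as against 0, 1.28 and 0 in β1-K794Q-GFP cells (log2 fold change -4.06, SE 1.32, adjusted p = 0.351 by edgeR's QL F-test), a call lost without β1-WT-GFP culture A. Junb, an AP-1 subunit, had a log2 fold change of -1.43 (adjusted p = 0.273) and -0.91 without β1-WT-GFP culture C, where its call was lost. E2f1, an S phase transcription factor, had 1.11 (adjusted p = 0.425) and held its call in 2 of the 6 fits without a culture (1.62 without β1-WT-GFP culture C). Tgfbr2 and Nras, the most abundant of the list, had log2 fold changes of 0.24 and -0.50 (-0.12 and -0.26 without β1-WT-GFP culture C) and did not pass.

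Among other fetal genes, some were silent and some were uneven between cultures. Of the 15, 8 were tested, 0 passed both thresholds and the median log2 fold change was -1.21. H19, Dlk1, Gpc3 and Sall4 had 0 counts in every culture. Igf2, the fetal growth factor whose mRNA gave the Igf2bp proteins their name, had 470, 346 and 45.5 CPM in β1-WT-GFP cells, as against 37.5, 7.40 and 199 in β1-K794Q-GFP cells, with overlapping groups and a log2 fold change of -1.82 (SE 1.27). Mest, an imprinted hydrolase, had 97.7, 101 and 245 CPM in the former and 6.07, 65.7 and 39.2 in the latter, with no overlap and a log2 fold change of -2.001 (SE 0.83, unadjusted p = 0.0513 and adjusted p = 0.495 by edgeR's QL F-test). With β1-WT-GFP culture C left out, Mest had -1.42 and Igf2 had -2.31 on the log2 scale. Without β1-K794Q-GFP culture A 1 of these genes passed, and without B or C 2 did. Of 11 tested genes for other HMG box and nucleosome binding proteins 0 passed both thresholds, with a median of 0.07. Hmgn1 had a log2 fold change of -0.15 (0.26 without β1-WT-GFP culture C) and Hmgxb3 of -0.47, the latter with an unadjusted p of 0.0177 and an adjusted p of 0.33 from the same test.

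**Figure D5:**
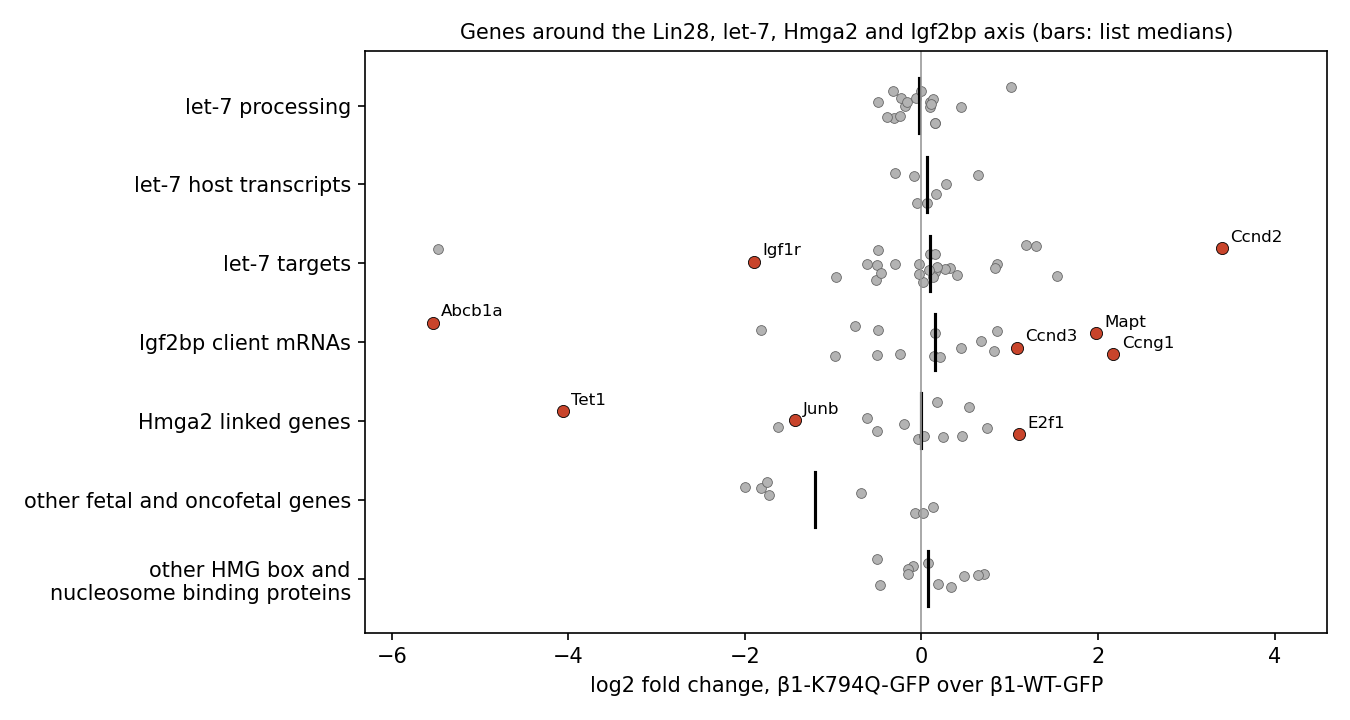
The log2 fold change of β1-K794Q-GFP over β1-WT-GFP (x axis) for the tested genes of 7 gene lists (rows), with red points for genes past both thresholds, grey points for the others and a black bar at each list's median. Points past both thresholds lie on either side of 0, from Abcb1a at -5.54 to Ccnd2 at 3.41, and the medians lie between -0.03 and 0.15 except that of the other fetal genes at -1.21.

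Over the 7 lists 93 distinct genes were tested, of which 5 rose and 4 fell past both thresholds, where 3.48% of all tested genes rose and 1.71% fell. Their median log2 fold change was 0.02, and 32 of them were highest in β1-WT-GFP culture C, as were 26.0% of all tested genes. The lists were written from general knowledge with earlier results of these data known, and their counts say nothing beyond the values given.

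The genes whose pattern over the 6 cultures was most like that of Hmga2-ps1 were Tlcd2, Aff2 and Gstm4, by Pearson's correlation of log2(CPM + 1). The r values were 0.999, 0.998 and 0.996 and Spearman's rho was 0.94, 0.94 and 1, over 6 cultures that share the same libraries. Tlcd2, a membrane protein, had 6.30, 7.40 and 16.9 CPM in β1-WT-GFP cells, as against 0.67, 0.89 and 0.77 in β1-K794Q-GFP cells. Aff2, a nuclear RNA binding protein, had 4.29, 4.399 and 10.1 CPM in the former and 0.19, 0 and 0.17 in the latter. Gstm4, a glutathione transferase, had 1.66, 2.00 and 2.92 CPM in the former and 0 in the latter. Their difference between the groups and their peak in β1-WT-GFP culture C follow from that choice.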

How the data were processed

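Total RNA of 6 cultures was sequenced after ribosomal depletion. The authors deposited raw read counts for mouse gene symbols, without normalisation. The study reports more than 1 sequencing of these samples, and the sources used here do not say which of them the counts hold. The submitters' processing notes name bcl2fastq 2.20.0, STAR 2.7.4a, HTSeq 0.9.1, edgeR 3.38.4 and mm10. The annotation and the treatment of strand and of reads with several positions are not given in the sources used here, so overlapping, antisense and near-identical genes are uncertain. Members and lists were chosen with earlier results of these data known, so that calls for members are descriptions and no p-value is printed for them. Genes were kept by filterByExpr, scaled by TMM and compared with the two-sided quasi-likelihood F-test of edgeR 4.0.16 in R 4.3.3, with Benjamini-Hochberg adjustment over 11608 genes. "Past both thresholds" means a 2-fold or larger change with an unadjusted p up to 0.05, after the study's methods. The standard error is the log2 fold change over the square root of F. A count of 0 was taken as at most 3 counts. Scripts were tested on simulated data. Named genes were the members, list genes past both thresholds, the 2 most abundant of each list, 5 tested genes on each side of Hmga2 and Lin28b, other symbols of the families (of these neighbours and symbols, 2 are not reported here and stay out of the counts), and the 3 most correlated genes for a tested member whose groups did not overlap. Positions came from GENCODE M21 and RefSeq, both GRCm38. Alternatives were no filter, 10 counts in every culture, RLE, DESeq2 1.42.0, the likelihood ratio test, the culture letter as a block, the regional level, each culture left out, another gene length and Spearman's correlation.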

Additional observations from a re-analysis of the deposited data

How the results depend on the processing

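Of 603 genes past both thresholds, the count became 916 with no filter on low counts and ran from 501 to 992 with each culture left out, highest without β1-WT-GFP culture C (992) and without β1-K794Q-GFP culture B (942). The 9 list genes became 14 with no filter and 14 with the likelihood ratio test, and 8 to 13 with each culture left out. The log2 fold change ran from -0.82 to 1.91 for Hmga2, from -10.94 to -9.71 for Hmga2-ps1 and from -0.37 to 0.08 for Igf2bp2 with each culture left out. With β1-WT-GFP culture C left out and the regional level in the fit, an alternative chosen after seeing the data, Hmga2-ps1 had -9.45 and Igf2bp2 0.29; the fitted values of Hmga2-ps1 depend on a prior count and are no bound. The cause of these shifts was not tested. The filter of 10 counts in every culture removed Hmga2-ps1. With the culture letter as a replicate block 571 genes and 13 list genes passed, and Hmga2 had 0.72. The deviations of same-lettered cultures correlated at 0.12 (A), 0.056 (B) and 0.11 (C). Between different letters, β1-K794Q-GFP culture A correlated with β1-WT-GFP culture B at 0.13. The other pairs of different letters were negative, down to -0.17 for β1-K794Q-GFP culture C with β1-WT-GFP culture B. Whether cultures of a letter share a batch is not stated and was not tested. Per kb of the longest transcript, Hmga2 stood at 42.6 CPM in β1-K794Q-GFP cells and Igf2bp2 at 20.98. The lowest depth, 9589826 counts, limits Igf2bp1, Igf2bp3, Hmga1 and Lin28. Hmga1 is uncertain beyond depth, since reads that fit several positions may not have been counted.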

Other observations

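The genes most like Hmga2 itself over the 6 cultures, named after their values were seen, were Hk2 (Pearson's r 0.991, Spearman's rho 0.94), Guk1 (0.991 and 1) and Atp5g2 (0.990 and 0.94), on log2(CPM + 1). Hk2, which encodes hexokinase 2, the first step of glycolysis, had 3.41, 3.30 and 51.7 CPM in β1-WT-GFP cells and 30.7, 11.2 and 5.76 in β1-K794Q-GFP cells (order A, B, C), and here β1-WT-GFP culture C and β1-K794Q-GFP culture A stood out as they did for Hmga2. Guk1, a guanylate kinase, and Atp5g2, a subunit of ATP synthase, were highest in the same culture within narrow ranges, from 12.7 to 20.5 CPM and from 16.2 to 19.6 CPM. For Igf2bp2 the closest were Jun (0.991), Ywhag (0.988) and Rpl4 (0.985), each with the lowest level in β1-K794Q-GFP culture C and the highest in β1-WT-GFP culture C. The correlations share the same 6 libraries and are given as a description.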
